A study of Mus musculus with 4 samples.

Results

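The genes described here encode 43 enzymes and reader proteins of chromatin acetylation, DNA methylation and Polycomb silencing, taken by symbol from the 56832 genes listed in each count file; all 43 were found. They comprise 11 classical histone deacetylases, 7 sirtuins, 9 lysine acetyltransferases and 2 bromodomain readers of the BET family. The set also holds 4 DNA methyltransferase genes, 3 TET dioxygenases and 3 genes listed as methyl-CpG-binding proteins. Another 4 encode core subunits of Polycomb repressive complex 2 (PRC2). RNA was sequenced from microglia, the resident macrophages of the brain, grown in primary glial culture from C57BL/6 mice. The cells were freed with trypsin and sorted by flow cytometry before RNA was purified. The 4 libraries, replicates 1 to 4, form 1 group (cMG in the labels) with no treatment, time or age given. The labels name the sex as female and do not say whether separate animals or cultures gave the libraries. An SD or p-value here thus describes how far these libraries differ, in part perhaps for technical reasons. The progenitor and co-culture groups that the series set beside these cells were not analysed here.

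Acetylation of histone tails by acetyltransferases loosens chromatin and creates docking sites for bromodomain proteins, and deacetylases remove the mark. DNA methyltransferases place methyl groups on cytosines of CpG dinucleotides, TET enzymes oxidise them as a step towards their removal, and methyl-CpG-binding proteins read them. PRC2 methylates lysine 27 of histone H3 through either of its alternative catalytic subunits, Ezh1 or Ezh2. In macrophages and microglia these enzymes are known for setting the enhancers that hold cell identity and for restraining or permitting inflammatory transcription.

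The libraries held 23212183 to 28469813 gene counts. In CPM (counts scaled to the library's total), all 12 microglia and macrophage markers were at 1 or more in every library, and they took 2.57% to 2.63% of the counts. Astrocyte markers (9 of 10 at 1 CPM or more in every library) took 0.0300% in replicate 1 and 0.0412% to 0.0506% in the others. Oligodendrocyte, mural, endothelial and neuronal lists each took 0.0275% or less. At 1 CPM or more in every library were 5 of their 9, 6 of 8, 2 of 6 and 1 of 6 genes, in that order. Single genes were higher: by mean CPM, Clu (astrocyte) was at 214, Mbp (oligodendrocyte) at 110, Flt1 (endothelial) at 72.1, Acta2 (mural) at 54.8 and Map2 (neuronal) at 12.3. Levels in sorted bulk RNA cannot tell fewer cells of a type from less RNA per cell. Immediate-early genes, which respond to stimulation and to dissociation, were highest in replicate 1 for 13 of 15 genes, and genes of cell division for 13 of 16. Against the label, transcripts of the Y-linked genes Ddx3y, Eif2s3y, Kdm5d and Uty were present in every library at 233 to 1140 counts, the last 2 being histone demethylase genes outside the set described here; Xist, the RNA of the inactive X chromosome, had 5864 to 9699 counts.

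The promoters of 5 genes are shown, chosen after their values were seen: Ezh1 and Ezh2 as alternative subunits at different levels, Tet3 and Tet1 as the pair furthest apart, and Hdac9 as the gene with the smallest p-value for spread between libraries. Each window is the 250 bases before a RefSeq transcription start on GRCm38.p6, read 5′ to 3′ on the gene's strand, with CpG dinucleotides in capitals. The exon lengths used for TPM below also rest on GRCm38, which is not the build of the counts.
Ezh1 (chr11:101226464-101226713, minus strand): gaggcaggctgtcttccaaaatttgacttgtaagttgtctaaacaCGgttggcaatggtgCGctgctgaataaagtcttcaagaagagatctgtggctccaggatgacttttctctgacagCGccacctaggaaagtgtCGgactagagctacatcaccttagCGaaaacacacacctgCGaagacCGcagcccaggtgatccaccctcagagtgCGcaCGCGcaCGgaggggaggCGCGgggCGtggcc
Ezh2 (chr6:47595031-47595280, minus strand): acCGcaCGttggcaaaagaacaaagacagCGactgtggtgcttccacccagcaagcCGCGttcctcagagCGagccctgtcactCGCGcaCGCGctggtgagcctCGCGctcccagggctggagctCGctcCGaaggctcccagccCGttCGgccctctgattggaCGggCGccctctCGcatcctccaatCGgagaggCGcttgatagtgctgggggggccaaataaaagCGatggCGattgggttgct
Tet3 (chr6:83441679-83441928, minus strand): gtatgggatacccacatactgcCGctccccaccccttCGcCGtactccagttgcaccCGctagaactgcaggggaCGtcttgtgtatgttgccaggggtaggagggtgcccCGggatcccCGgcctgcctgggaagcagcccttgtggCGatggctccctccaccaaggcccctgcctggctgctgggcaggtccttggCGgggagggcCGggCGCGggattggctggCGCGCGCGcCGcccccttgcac
Tet1 (chr10:62887325-62887574, minus strand): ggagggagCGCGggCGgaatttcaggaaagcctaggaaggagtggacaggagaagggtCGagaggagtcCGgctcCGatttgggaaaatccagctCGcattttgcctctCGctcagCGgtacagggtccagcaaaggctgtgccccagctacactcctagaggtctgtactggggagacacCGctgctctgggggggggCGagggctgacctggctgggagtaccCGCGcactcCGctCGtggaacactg
Hdac9, first listed start (chr12:34917096-34917345, minus strand): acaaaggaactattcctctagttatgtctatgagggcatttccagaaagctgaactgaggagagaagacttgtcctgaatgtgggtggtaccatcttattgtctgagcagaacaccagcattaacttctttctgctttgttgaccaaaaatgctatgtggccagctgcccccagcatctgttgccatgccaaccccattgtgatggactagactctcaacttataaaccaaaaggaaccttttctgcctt
Hdac9, second listed start (chr12:34528890-34529139, minus strand): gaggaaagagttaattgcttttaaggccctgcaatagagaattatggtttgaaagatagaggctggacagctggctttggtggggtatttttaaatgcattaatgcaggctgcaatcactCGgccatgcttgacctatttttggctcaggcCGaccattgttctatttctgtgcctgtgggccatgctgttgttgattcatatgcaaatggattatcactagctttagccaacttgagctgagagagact

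The window of Ezh1 held 14 CpGs, that of Ezh2 23, that of Tet3 17 and that of Tet1 15. The Hdac9 windows held 0 and 2. Over all 32851 RefSeq windows of this length the median was 6, with quartiles of 2 and 16, and over the 55 windows of the 37 members that had one the median was 15. Both listed Hdac9 starts were thus at or below the lower quartile of all windows. Tet1 and Tet3, whose levels differ most below, had windows of like CpG number. The motifs, of which none contains another, were searched on both strands: the CCAAT box (CCAAT), the GC box (GGGCGG), an E2F-type motif (TTTNNCGC), a PU.1-type motif (GAGGAAGT) and the cyclic AMP response element (TGACGTCA). The CCAAT box stood 3 times in the Ezh2 window and 0 times in that of Ezh1, and it was in 33.8% of all windows and 34.5% of the members' windows. The GC box was in 58.2% of the members' windows and in 32.7% of all windows; among the windows shown, those of Tet3 and Tet1 held 1 each. The E2F-type motif was in 10.9% of the members' windows against 4.28% of all, the PU.1-type motif in 1.82% against 2.44% and the cyclic AMP element in 0% against 1.55%. These matches describe letters in a window and not binding.

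Levels of different genes were compared as TPM, that is counts divided by the summed length of a gene's merged exons and scaled to the same total in every library. Of the 43 genes, 41 were at 1 CPM or more in every library. The exceptions were Tet1 and Dnmt3l. By mean TPM, 3 genes were above 100, 9 between 50 and 100, 18 between 10 and 50, 11 between 1 and 10, and 2 under 1. The median over the 43 genes, taken in each library and then averaged, was 28.3 TPM ± 1.92 (SD over 4 libraries, as for every ± below unless stated otherwise). Among the 41 detected genes the median of the genes' mean TPM was 30.9. That same statistic was 22.4 TPM over the 10974 protein-coding genes detected in the same way. Together the 43 genes took 0.306% of all gene counts.

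**Figure D1:**
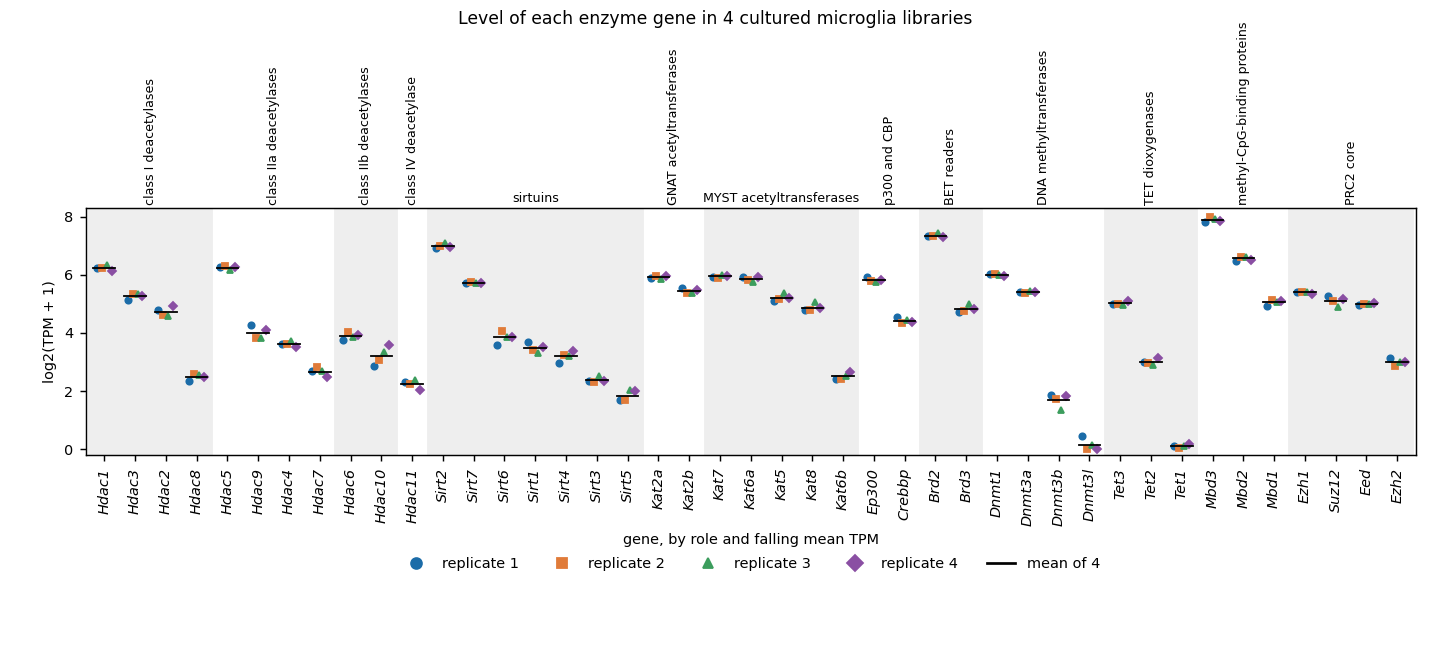
Level of each of the 43 genes in each library, as log2(TPM + 1), grouped by role; each symbol is 1 library and the bar is the mean of the 4 log2 values. Mbd3, Brd2 and Sirt2 are highest, Tet1 and Dnmt3l lie near 0, and the distance between related genes is mostly larger than the scatter of the libraries.

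Among the class I deacetylases, of which Hdac1, Hdac2 and Hdac3 work inside corepressor complexes, Hdac1 was highest. It was at 73.6, 73.6, 80.9 and 68.8 TPM in replicates 1 to 4, and its close relative Hdac2 at 27.0, 23.4, 22.9 and 29.3 TPM. The libraries of the 2 genes did not overlap, and Hdac1 exceeded Hdac2 by 1.5 ± 0.248 on the log2(TPM + 1) scale. Hdac3, the catalytic subunit of the NCoR/SMRT corepressor, was between them at 34.4, 39.3, 39.8 and 37.3 TPM. Hdac8, which also deacetylates cohesin, was lowest of the class at 4.08, 5.0, 4.93 and 4.57 TPM. Hdac3 exceeded Hdac8 by 2.78 ± 0.0230 on the log2(TPM + 1) scale; with the length of the longest transcript in place of merged exons the difference was 1.97.

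The class IIa deacetylases shuttle between cytoplasm and nucleus and bind MEF2 transcription factors. One of them dominated: Hdac5 was at 75.7, 77.2, 71.6 and 75.8 TPM, level with Hdac1 (difference of 0.02 ± 0.134 on the log2(TPM + 1) scale, higher in 3 of 4 libraries). Hdac4 was at 11.3, 11.4, 12.1 and 10.5 TPM, which was 2.62 ± 0.112 lower than Hdac5 on that scale. Hdac9 was at 18.2, 13.2, 13.1 and 16.2 TPM and Hdac7 at 5.49, 6.17, 5.39 and 4.57 TPM, a Hdac7 minus Hdac9 difference of -1.33 ± 0.317. Every library of Hdac9 lay above every library of Hdac7. Of the Hdac4 exon bases, 22.4% are overlapped by other annotated genes on the opposite strand, and reads there may have been lost or added, since the labels do not state whether strand was used in counting.

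The class IIb enzyme Hdac6, a cytoplasmic tubulin deacetylase, was at 12.5, 15.4, 13.7 and 14.2 TPM. Hdac10, which acts on polyamines, was at 6.22, 7.38, 9.13 and 11.1 TPM, from 165 to 316 counts. Hdac10 had the widest spread of log2 CPM among the 41 tested genes, with replicate 1 lowest and replicate 4 highest. Hdac6 lay above Hdac10 in 4 of 4 libraries, by 0.69 ± 0.301 on the log2(TPM + 1) scale. Hdac11, the only class IV enzyme, was the lowest deacetylase of the classical type at 3.94, 3.75, 4.16 and 3.10 TPM. Other genes overlap 17.9% of its exon bases on the opposite strand. The 11 classical deacetylases summed to 272, 276, 278 and 275 TPM, of which Hdac5 made up 27.3% ± 1.01 and Hdac1 26.9% ± 1.70.

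Sirtuins are deacylases that consume NAD+. Sirt2, mainly cytoplasmic, was far above the other 6, at 122, 128, 135 and 123 TPM, and made up 58.2% ± 1.21 of their sum of 218 TPM ± 6.58. The nucleolar Sirt7 followed at 51.8, 52.8, 51.8 and 52.2 TPM, the smallest SD relative to its mean of all 43 genes. The nuclear enzymes Sirt6 and Sirt1 were at 11.1, 15.6, 13.6 and 13.6 TPM and at 12, 9.60, 8.95 and 10.5 TPM, and their order turned in replicate 1. The mitochondrial sirtuins were the lowest of the family. Sirt4 was at 6.80, 8.42, 8.25 and 9.37 TPM, Sirt3 at 4.11, 3.93, 4.73 and 4.12 TPM and Sirt5 at 2.19, 2.20, 3.06 and 2.99 TPM. Sirt2 exceeded Sirt1 by 3.51 ± 0.229 on the log2(TPM + 1) scale, or by 4.48 with longest-transcript lengths, under which Sirt2 rather than Mbd3 was the highest of the 43 genes. Sirt7 exceeded Sirt6 by 1.89 ± 0.179, and Sirt3 exceeded Sirt5 by 0.54 ± 0.142, or by 0.23 with longest-transcript lengths.

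The acetyltransferases were more even. Their sum was 371, 356, 364 and 371 TPM, and the highest, Kat7, made up 16.6% ± 0.548 of it. Kat7, the catalytic subunit of HBO1 complexes, was at 59.7, 58.4, 63.2 and 61.4 TPM. Kat2a, the GCN5 subunit of the SAGA coactivator, was at 58.3, 62.0, 56.6 and 61.0 TPM, Kat6a (MOZ) at 59.9, 55.6, 52.4 and 60.2 TPM, and Ep300 (p300) at 59.7, 54.3, 53.3 and 55.4 TPM. The ranges of these 4 genes overlapped, and each neighbour in the order was higher in 3 of 4 libraries, so neighbours could not be ranked beyond the spread between libraries. Kat7 lay above Ep300 in 4 of 4 libraries.

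Below them stood Kat2b (PCAF) at 45.9, 40.6, 40.3 and 44.1 TPM and Kat5 (TIP60) at 33.6, 35.2, 40.3 and 35.8 TPM. The remaining acetyltransferases were Kat8 (MOF) at 27.0, 26.4, 32.4 and 27.8 TPM, Crebbp (CBP) at 22.2, 19.3, 20.5 and 19.9 TPM, and Kat6b (MORF) at 4.35, 4.36, 4.78 and 5.25 TPM. Relatives within this group differed in level. Kat6a exceeded Kat6b by 3.35 ± 0.132 on the log2(TPM + 1) scale (2.35 with longest-transcript lengths), and Ep300 exceeded Crebbp by 1.40 ± 0.0497. Kat2a exceeded Kat2b by 0.47 ± 0.106 and Kat5 exceeded Kat8 by 0.34 ± 0.0453, each in 4 of 4 libraries. The Kat5 and Kat8 difference was 0.12 with longest-transcript lengths. Counts not divided by length put Kat2a and Kat2b level, and the Kat5 gene shares 12.1% of its exon bases with its opposite-strand neighbour Rnaseh2c.

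The BET readers bind acetylated histone tails and recruit transcription factors and elongation factors. Brd2 was at 160.2, 159.8, 171 and 156 TPM, above 91.3% of the detected protein-coding genes, and had the most counts of any of the 43 genes (8673 to 10312). Brd3 was at 25.6, 25.7, 31.1 and 27.4 TPM. Both genes were highest in replicate 3, and Brd2 exceeded Brd3 by 2.52 ± 0.0865 on the log2(TPM + 1) scale.

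DNA methyltransferase transcripts came almost entirely from 2 genes. Dnmt1, which copies methylation after replication, was at 63.6, 64.0, 63.4 and 60.8 TPM. Dnmt3a, a de novo enzyme, was at 41.6, 40.5, 42.0 and 41.6 TPM. They made up 59.0% ± 0.837 and 38.8% ± 0.778 of the family's sum, and both varied less between libraries than most of the 43 genes. Dnmt1 exceeded Dnmt3a by 0.59 ± 0.0460 on the log2(TPM + 1) scale, a difference that rests on gene length: it was 0.15 with longest-transcript lengths and -0.57 on CPM.

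Dnmt3b, the other de novo enzyme, was at 2.64, 2.29, 1.57 and 2.55 TPM, from 106, 81, 55 and 110 counts, with replicate 3 lowest. Dnmt3a exceeded it by 3.71 ± 0.240 on the log2(TPM + 1) scale, an 18.3-fold ratio of mean TPM. Dnmt3l, a germline cofactor without catalytic activity, had 9, 0, 2 and 0 counts in replicates 1 to 4. A count of 0 allows up to 3 counts, or 0.128 CPM in replicate 2 and 0.105 CPM in replicate 4, by counting error only. Dnmt3l was thus at the limit of detection in all libraries but replicate 1.

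Of the TET dioxygenases, Tet3 was at 30.9, 30.8, 30.5 and 33.2 TPM and Tet2 at 7.10, 6.90, 6.54 and 7.87 TPM. Both were highest in replicate 4 and lowest in replicate 3. Tet1 had 9, 4, 8 and 17 counts, or 0.0741, 0.0373, 0.0753 and 0.130 TPM. Tet3 thus made up 81.4% ± 0.679 of the family's 38.5 TPM ± 1.83. The Tet2 minus Tet3 difference was -2.0 ± 0.0496 on the log2(TPM + 1) scale. Tet3 exceeded Tet1 by 4.91 ± 0.0292, a size set in part by the pseudocount of 1, since it was 7.48 with a pseudocount of 0.1.

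All 3 genes listed as methyl-CpG-binding proteins were well expressed. They were grouped by symbol, and whether each product binds methylated CpG was not tested. Mbd3, a subunit of the NuRD complex, was the highest of the 43 genes by this measure at 225, 252, 240 and 232 TPM. Mbd2, its alternative in that complex, was at 88.8, 97.5, 97.7 and 91.0 TPM, and Mbd1 at 29.6, 34.1, 32.3 and 33.6 TPM. All 3 were lowest in replicate 1 on both TPM and scaled CPM. The Mbd2 minus Mbd3 difference was -1.33 ± 0.0307 on the log2(TPM + 1) scale and -0.87 with longest-transcript lengths.

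Within PRC2 the catalytic subunits differed. Ezh1 was at 41.3, 41.6, 41.8 and 39.5 TPM and Ezh2, the subunit usually linked to dividing cells, at 7.82, 6.26, 7.06 and 7.03 TPM. The values of Ezh1 lay far above those of Ezh2 in every library, by 2.39 ± 0.124 on the log2(TPM + 1) scale, or by 2.03 with longest-transcript lengths, under which Ezh2 averaged 12.8 TPM. Ezh2 was highest in replicate 1, as were 13 of the 16 cell division genes and 3824 of all 12879 genes tested. Its scaled CPM was 15.4, 12.4, 13.8 and 13.9, lowest in replicate 2. Its spread was not called in the edgeR test described below (unadjusted p = 0.70). Mki67, a marker of cycling cells, was at 62.2, 39.5, 33.1 and 52.4 scaled CPM, lowest in replicate 3. The part of dividing cells in the Ezh2 level was not tested. The other subunits in the set, Suz12 and Eed, lay between Ezh1 and Ezh2. Suz12 was at 37.2, 33.5, 28.4 and 35.2 TPM and Eed at 29.9, 30.8, 31.1 and 31.8 TPM. Their order was not stable, with Eed lower in 3 of 4 libraries by 0.11 ± 0.177 and higher by 0.58 with longest-transcript lengths. Ezh1 exceeded Suz12 by 0.29 ± 0.183, or by 0.92 with longest-transcript lengths.

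In all, 20 pairs of related genes were compared within each library. The test was two-sided and exact, a permutation of the signs of the 4 differences. The sign was the same in 4 of 4 libraries for 19 pairs, each with an exact p of 0.13, the smallest that 4 libraries allow, and an adjusted p of 0.132 over the 20 pairs. For Eed and Suz12 the exact permutation p was 0.375. No pair could therefore pass 0.05, and the sizes and SDs above carry the comparisons. The difference was over 1 on the log2(TPM + 1) scale for 14 pairs. Inside the families, 26 of 35 steps between neighbours in the order of levels had the same sign in every library. That order was set by mean TPM over the same 4 libraries, so the count is no independent test of it. Longest-transcript lengths turned 6 of the 35 steps, 2 of them among the 26: Hdac6 over Hdac4 went from 0.27 to -0.43 and Kat2b over Kat5 from 0.23 to -0.33 on the log2(TPM + 1) scale. The others were Hdac5 over Hdac1, Hdac7 over Hdac8, Kat6a over Ep300 and Suz12 over Eed.

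**Figure D2:**
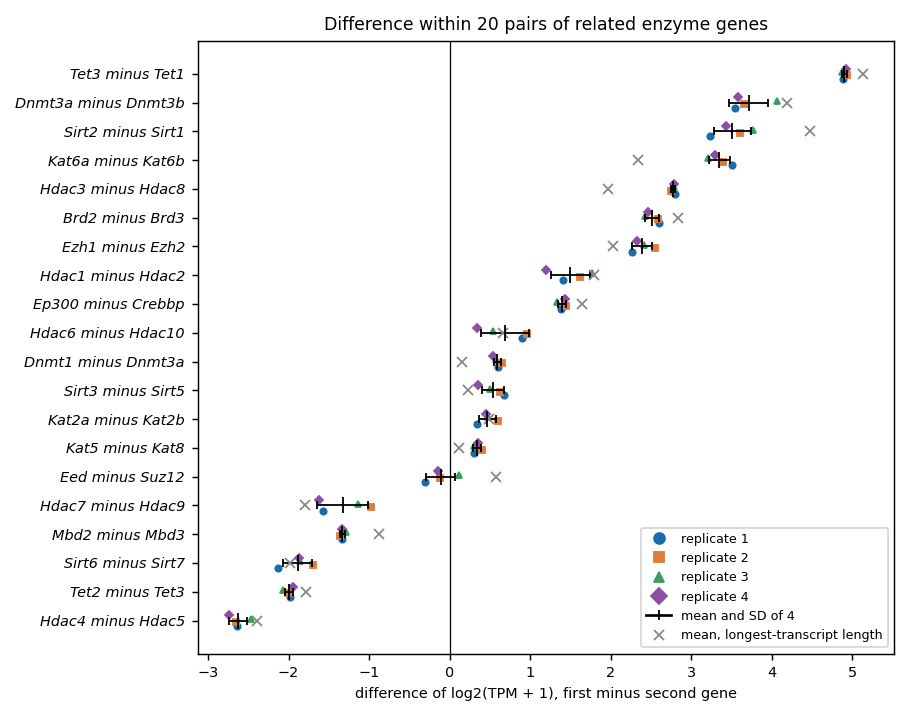
Difference of log2(TPM + 1) within each of the 20 pairs, first minus second gene; coloured symbols are libraries, the black bar is the mean with its SD, and the grey cross is the mean with longest-transcript lengths. All pairs but Eed and Suz12 keep 1 sign over the 4 libraries, and the shift caused by the choice of length is often larger than the scatter between libraries.

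With 1 group, the contrast left was between the replicate libraries. A gene was called when its spread exceeded that of genes of like abundance (edgeR deviance test with trended dispersion, Benjamini-Hochberg adjusted p under 0.05). Of the 41 genes that passed the abundance filter, 0 were called, beside 1.11% of all 12879 genes tested; Dnmt3l and Tet1 were not tested. DESeq2 marked 0 of the 41 as dispersion outliers, beside 0.536% of all genes tested. At an unadjusted p under 0.05 there was 1 gene, 2.44% of the 41, beside 6.79% of all genes tested. The median SD of log2 CPM was 0.103 for these 41 genes and 0.130 for all genes tested. The 41 genes were more abundant than most (median 52.9 against 23.5 CPM), and for the 5006 genes between their quartiles of abundance the median SD was 0.0987, so their spread was near that of genes of like abundance.

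The gene with an unadjusted p under 0.05 was Hdac9 (edgeR adjusted p = 0.21). Its CPM after scaling was 78.9, 57.1, 55.9 and 70.4 in replicates 1 to 4, so replicates 1 and 4 were the higher pair. The share of mitochondrially encoded transcripts was also higher there, at 1.23% and 1.24% against 1.07% in replicate 2 and 0.900% in replicate 3. P2ry12, a microglial marker that was called (edgeR adjusted p = 0.0010), was at 239, 185, 161 and 249 scaled CPM, and Mki67, also called (edgeR adjusted p = 0.00018), at 62.2, 39.5, 33.1 and 52.4. Both were higher in replicates 1 and 4 as well, and each was the only called gene of its list. P2ry12, Mki67 and, below, Acta2 were named after their values were seen. Other called markers ran differently. Of the 15 immediate-early genes 11 were called, and replicate 4 was highest for 0 of the 15 and lowest for 6. Of the 9 astrocyte markers tested 3 were called, and replicate 1 was lowest for all 9. Of the 16 cell division genes, replicate 4 was highest for 0 and lowest for 5. Of the 12 microglia and macrophage markers, replicate 4 was highest for 4 and lowest for 1. Acta2, a mural marker that was also called (edgeR adjusted p = 0.0041), ran the other way. It was at 43.4, 57.2, 72.5 and 45.7 scaled CPM. Its list was divided: of the 6 mural and fibroblast markers tested, replicate 3 was highest for 3 and lowest for 3. The part of these values in the Hdac9 spread was not tested. Hdac9 stayed under an unadjusted 0.05 when any 1 library was left out and was above it with a common dispersion, and its edgeR adjusted p ranged from 0.21 to 0.71 over the alternatives. Hdac10 was past an unadjusted 0.05 with a common dispersion (edgeR adjusted p = 0.095) and without replicate 3 (edgeR adjusted p = 0.79). Hdac2 was past it without replicate 1 (edgeR adjusted p = 0.79).

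**Figure D3:**
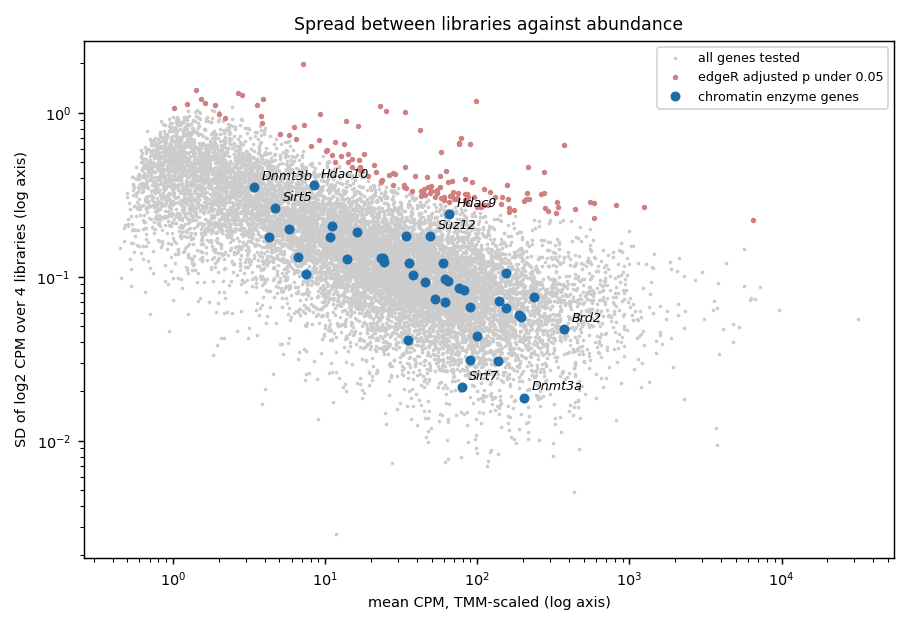
SD of log2 CPM over the 4 libraries against mean CPM, both axes logarithmic, for all genes tested (grey), genes called in the edgeR test (red) and the 41 tested chromatin enzyme genes (blue). Among the blue points Hdac10 and Dnmt3b have the largest SD and Dnmt3a and Sirt7 the smallest.

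The steadiest genes were Dnmt3a and Sirt7, with SDs of log2 CPM of 0.0184 and 0.0212, followed by Dnmt1 (0.0308), Ezh1 (0.0313) and Eed (0.0409). The widest were Hdac10 (0.362), Dnmt3b (0.352) and Sirt5 (0.261), all under 10 CPM. Replicate 1, which stood apart in its immediate-early genes, was highest for 8 of the 41 genes and lowest for 15; over all 12879 genes tested these counts were 3824 and 3955. Replicate 2 was highest for 13 of the 41 and lowest for 6. Replicate 3 was highest for 11 and lowest for 13, and replicate 4 highest for 9 and lowest for 7. Over all 12879 genes tested, replicates 2, 3 and 4 were highest for 3076, 3094 and 2885. They were lowest for 2885, 3238 and 2801. The median deviation of the 41 genes on the log2 CPM scale was -0.014, -0.0034, 0.0012 and 0.015 in replicates 1 to 4.

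**Figure D4:**
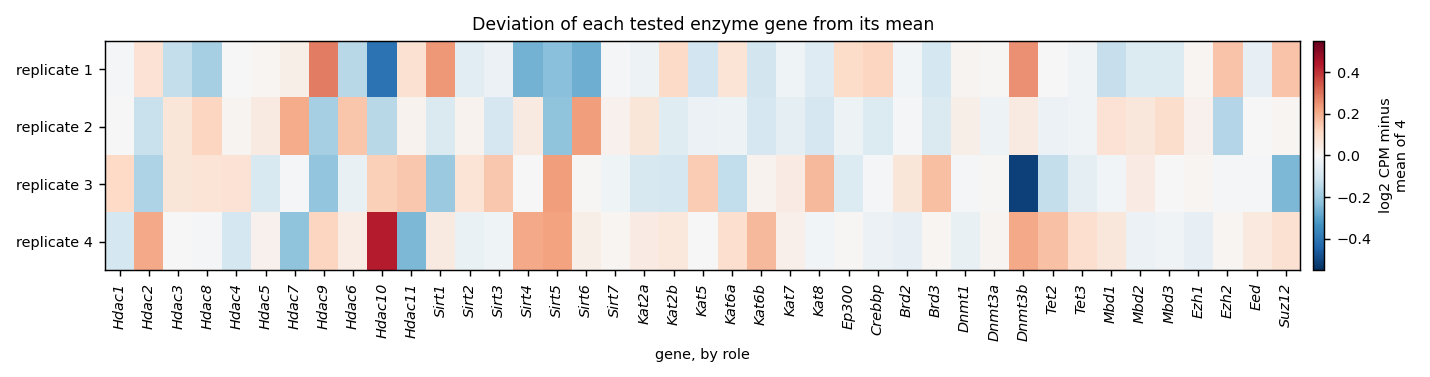
Deviation of log2 CPM (TMM-scaled) from the mean of the 4 libraries for each tested gene, by role; red is above and blue below the mean. The strongest colours belong to Hdac10 in replicates 1 and 4 and to Dnmt3b in replicate 3, both low-count genes.

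Partner genes of these enzymes were taken from lists made by known complex membership. Of 25 corepressor genes that carry class I deacetylases, all were at 1 CPM or more in every library, with a median of 55.1 TPM ± 1.65. The NuRD remodeller Chd4 (192 TPM ± 5.95) and Mta2 (164 ± 4.65) were highest and the CoREST gene Rcor2 (2.61 ± 0.211) lowest. Of 10 partners of class IIa deacetylases, 9 were detected in every library, led by the 14-3-3 genes Ywhae (520.1 TPM ± 23.2) and Ywhab (286 ± 7.34), whose proteins hold these enzymes in the cytoplasm. Their lowest member was Mef2b (0.392 ± 0.276).

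All 41 partners of the acetyltransferases were detected, with a median of 27.2 TPM ± 1.44; Morf4l1 (94.8 ± 4.05) and Hcfc1 (93.8 ± 4.12) were highest and Jade3 (4.60 ± 1.33) lowest. Of 19 genes that guide, support or follow DNA methylation, 17 were detected, with a median of 28.1 TPM ± 2.39. The corepressor Trim28 (197 ± 12.6) and Mat2a (148 ± 7.46), which makes the methyl donor, were highest and the imprinting factor Zfp57 (0.141 ± 0.0740) lowest. All 27 Polycomb partners were detected, with a median of 17.5 TPM ± 0.457. The histone chaperones Rbbp7 (125 ± 5.13) and Rbbp4 (77.3 ± 1.37), which also belong to the corepressor list, were highest, and Phf19 (2.32 ± 0.462) was lowest. The edgeR spread test took in 25 corepressor, 9 class IIa, 41 acetyltransferase, 18 DNA methylation and 27 Polycomb partners. In each list 0 were called, beside 1.11% of all genes tested. At an unadjusted p under 0.05 there was 1 gene, of the DNA methylation list, beside 6.79% of all genes tested. It was the methyl-CpG-binding Zbtb33, named after its values were seen.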

How the data were processed

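RNA-seq counts of 4 libraries of cultured mouse microglia were used, grouped by their titles. The values deposited by the authors are raw counts, 1 row per symbol and not normalized. The submitters' processing notes name HTSeq 0.11.2, STAR 2.7.10a and SAMtools 1.16.1 with genome build mm39 (GRCm39). Annotation release, strand setting and overlap mode: not given in the sources used here. In all, 5 summary lines per file (11.8% ± 0.159 of reads, SD, n = 4) were left out; 0 columns belonged to no sample, and 0 pairs of libraries were identical. The members and gene lists were chosen with earlier results of these data known.

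CPM used summed gene counts. TPM was computed from merged exon lengths in GENCODE M21 (GRCm38), matched by symbol (89.1% of symbols, 98.8% of counts, all 43 members), in Python 3.11.15 with pandas 2.3.3. Of the members, 6 have over 5% of their exon bases overlapped by other genes (Hdac4, Hdac11, Sirt3, Kat5, Brd2 and Eed), on the opposite strand. Pseudogenes named after members had 0 to 11 counts per library. Differences used log2(TPM + 1).

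Spread between libraries was tested over all genes in edgeR 4.0.16 (R 4.3.3) with 1 mean per gene, TMM scaling, filterByExpr, trended dispersion and a chi-square on 3 degrees of freedom, with Benjamini-Hochberg adjustment. The test was also run on simulated data, but the outcome is not given here and no conclusion is drawn from it. Alternatives were DESeq2 1.42.0 size factors and outlier marks, a common dispersion, no filter, other lengths, CPM, another pseudocount and each library left out. The rule for named genes asked for values in every library for the highest and lowest member of each role, pairs that differed by over 1, and low, variable or outlying members; they are given for all 43. Of each partner list the 2 highest and the lowest are named.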

Additional observations from a re-analysis of the deposited data

Results flagged for a closer look

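Of the 43 genes, 1 held a library far from the other 3 by Dixon's test on TPM: Tet3 was at 33.2 TPM in replicate 4 against 30.5 to 30.9 TPM in the others. Chance gives such a library in about 1 of 20 genes. The edgeR spread test did not call Tet3; 0 of the 41 tested genes were called.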

How the results depend on the processing

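Among the 43 genes (41 tested in the main setting, Tet1 and Dnmt3l not), 0 were called for spread under every alternative run, and the count at 1 CPM or more in every library was 41 under each. The background moved more: 143 of all tested genes were called, 532 with a common dispersion and 69 as DESeq2 outlier marks. It was 47 without replicate 1, 52 without replicate 3 and 118 at most, without replicate 2. The median of the 43 genes, taken in each library and then averaged, was 30.8 TPM when Tet1 and Dnmt3l were left out. Of the 20 pair differences, the sign turned for Kat2a minus Kat2b (-0.0058) and Dnmt1 minus Dnmt3a (-0.57) on CPM without gene length, and for Eed minus Suz12 (0.58) with longest-transcript lengths. No pair difference turned with a pseudocount of 0.1 or without any 1 library. Longest-transcript lengths moved the mean TPM of 5 genes by over 1.5 times (Sirt2, Ezh2, Kat6b, Hdac8 and Sirt5). Depth limits Tet1 and Dnmt3l, with 0 to 17 counts per library.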
